A study of Mus musculus with 27 samples.

Results

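Hair follicle stem cells (HFSCs) cultured with BMP2 and BMP4 were compared with HFSCs cultured with the same BMPs plus R-spondins. The cells were members of the comparison when their barcode held at least 500 genes and 1000 UMIs, under 10% mitochondrial UMIs, and at least 20 hashtag counts with at least 70% of them from 1 hashtag. A UMI, or unique molecular identifier, marks 1 captured RNA molecule, and a hashtag is a barcoded antibody that records the culture a cell came from. Of 657 barcodes in the cultured matrices of both mice, 342 met these limits, and 273 of those carried the hashtag of one or the other culture. They comprised 136 BMP2/4 cells (122 from mouse 1 and 14 from mouse 2) and 137 Rspo+BMP2/4 cells (102 from mouse 1 and 35 from mouse 2). No barcode was shared between the mice.

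The series as a whole follows how vitamin A signaling resolves lineage plasticity, the state in which HFSCs express stem cell and epidermal programs at once. The cells came from wild-type AnaVI back skin of mice at about postnatal day 32, were sorted for CD34, and were grown as 1 HFSC line per mouse for 2 passages before being divided into 3D cultures. By the methods of the study, both cultures held the serum-free supplement B-27 together with all-trans retinoic acid and a protein kinase C inhibitor (atRA+PKCi). They differed only by the added R-spondins, so no value below is a response to BMP2/4 itself. The cells of all cultures of a mouse were pooled and captured in 1 run of the 10x Genomics 3' assay. Hence each condition has 1 culture of each of 2 lines, the mice are the replicates, and no two-sided exact permutation test of 2 values against 2 can give a p under 0.333.

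R-spondins are secreted proteins that bind the receptors LGR4, LGR5 and LGR6 and clear the ubiquitin ligases RNF43 and ZNRF3 from the cell surface. These ligases otherwise remove Frizzled receptors, so that R-spondins strengthen a WNT signal that is already present. AXIN2, RNF43 and ZNRF3 are themselves transcribed in response to WNT and damp the pathway as feedback. BMPs act through receptor kinases and SMAD1, SMAD5 and SMAD9 to induce the ID genes, and in the follicle they hold HFSCs in quiescence and later take part in the differentiation of the hair shaft and the inner root sheath (IRS).

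The condition of a cell rests on the hashtag oligo, and the oligos of the conditions compared differ at 12 of 15 bases. They are shown because every comparison below depends on telling them apart.
HTO_0305 (BMP2/4): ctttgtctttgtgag
HTO_0306 (Rspo+BMP2/4): tatgctgccacggta
In mouse 1 the median cell had 79.2% of its hashtag counts from its own oligo in BMP2/4 and 82.5% in Rspo+BMP2/4. In mouse 2 these medians were 92.1% and 96.8%. The oligo of the opposite condition took medians of 3.59% and 1.78% in mouse 1 and 1.69% and 0.353% in mouse 2. All 14 cells that met the other limits but fell short of 70% were BMP2/4 cells of mouse 1, at 65.4% to 70.0%. Their lowest counterpart inside the limit stood at 70.2%.

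The conditions differed in depth and cell quality within both mice. The median BMP2/4 cell held 34351 UMIs in mouse 1 and 33662 in mouse 2, against 28202 and 25081 in Rspo+BMP2/4. Mitochondrial UMIs had medians of 6.08% and 5.72% in BMP2/4 against 6.54% and 6.86% in Rspo+BMP2/4. Of barcodes that carried a clear hashtag, the limits kept 66.7% and 40.0% in BMP2/4 and 52.6% and 46.1% in Rspo+BMP2/4. UMIs were summed per mouse and condition, which gave 4178524 and 565546 UMIs in BMP2/4 and 2834736 and 1101070 in Rspo+BMP2/4 for mouse 1 and mouse 2. Levels below are CPM, the usual scaling of UMIs to the total of a sum after TMM normalization, in the order of mouse 1 and mouse 2. They are not divided by gene length, so levels are compared between cultures and not between genes. A single UMI was worth 0.276 and 1.85 CPM in BMP2/4 and 0.392 and 0.898 CPM in Rspo+BMP2/4. Both conditions were keratinocytes by their markers. Krt14, the main basal keratin, stood at 14331 and 12272 CPM in BMP2/4 and at 13213 and 10257 CPM in Rspo+BMP2/4, and all 6 listed keratinocyte markers were tested. Of 10 fibroblast markers, Col1a1, Col1a2, Col3a1, Dcn, Lum and Thy1 had 0 UMIs in all 4 sums. Sparc and Vim, which keratinocytes can also express, were tested, and the list summed to 857 and 836 CPM (here without TMM) in BMP2/4 and to 540 and 909 CPM in Rspo+BMP2/4, nearly all of it Sparc. The part of other cell types in the results was not tested.

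The fit over all sums called no gene, and the WNT feedback genes Axin2 and Rnf43 passed only in some alternative fits. In the fit of edgeR's quasi-likelihood test over the 10 sums of 5 culture conditions, 0 of 6419 tested genes were higher (0.0% called) and 0 were lower (0.0% called) in Rspo+BMP2/4 at an adjusted p under 0.05. At an unadjusted p under 0.05 there were 148 genes, and DESeq2 likewise called 0, with 56 at an unadjusted p under 0.05. The genes nearest to the threshold were Alox12e and Axin2, both at an adjusted p of 0.051. Since the cultures of a mouse share a line and a capture, the same fit was made with the mouse as a block, and it called 4 genes higher (0.0623% of those tested) and 1 lower (0.0156%). The 4 were Axin2, Rnf43, Chst11 and Mt3, and the 1 was Alox12e. A fit of only the 4 sums compared, in which the spread is not shared with the smaller cultures, tested 9462 genes and called 28 higher (0.296%) and 7 lower (0.074%). With the mouse as a block, it called 40 higher (0.423%) and 10 lower (0.106%). The median log2 fold change over all genes tested was -0.01.

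Of the WNT feedback genes, Axin2 and Rnf43 passed with the mouse as a block, and Znrf3 only in the fits of the 4 sums. Axin2, the scaffold of the complex that degrades beta-catenin, lies on chr11:108920349-108950783 of the forward strand (GRCm38). It stood at 9.37 and 3.71 CPM in BMP2/4 (34 and 2 UMIs) and at 48.2 and 26.9 CPM in Rspo+BMP2/4 (123 and 30 UMIs). Both Rspo+BMP2/4 sums were thus above both BMP2/4 sums, and the log2 fold change was 2.23 (SE 0.40, n = 2 mice; edgeR adjusted p = 0.051). With the mouse as a block Axin2 rose by 2.33 on the log2 scale (edgeR adjusted p = 0.041), and in the fit of the 4 sums by 2.22 (edgeR adjusted p = 0.0056). The UMIs came from 27 of 122 and 2 of 14 BMP2/4 cells, and from 49 of 102 and 17 of 35 Rspo+BMP2/4 cells.

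Rnf43, on chr11:87662722-87735539 of the forward strand, encodes the ligase that R-spondins act on. It was counted at 14.6 and 16.7 CPM in BMP2/4 and at 74.8 and 64.6 CPM in Rspo+BMP2/4. The groups did not overlap, with a log2 fold change of 2.20 (SE 0.44; edgeR adjusted p = 0.100), and Rnf43 rose with the mouse as a block (2.24; edgeR adjusted p = 0.046). Znrf3, its paralog on chr11:5276324-5444847 of the reverse strand, stood at 55.1 and 68.6 CPM in BMP2/4 and at 106 and 138 CPM in Rspo+BMP2/4. Its log2 fold change of 1.00 (SE 0.39; edgeR adjusted p = 0.999) passed only in the fits of the 4 sums, at an edgeR adjusted p of 0.039 without and 0.026 with the mouse as a block. Hence the transcript of one target of R-spondins was about 4.6-fold higher and that of the other about 2.0-fold higher in these sums.

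**Figure D1:**
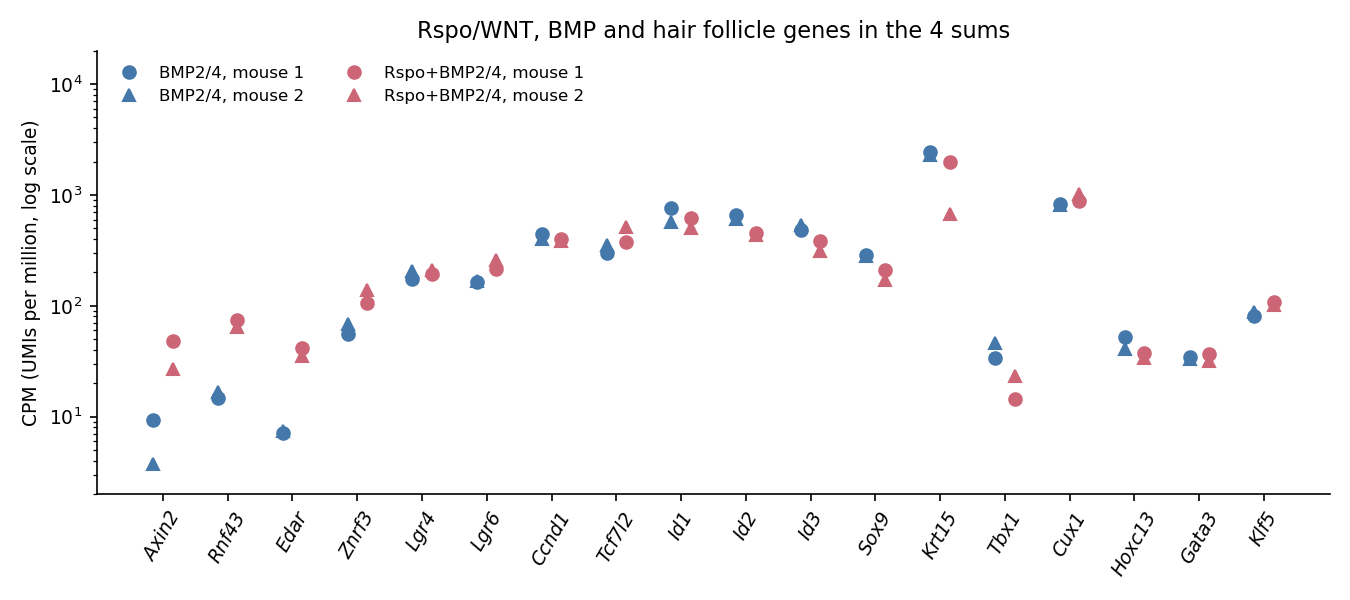
Levels of 18 named genes in the 4 sums, as CPM on a log scale. Circles are mouse 1 and triangles mouse 2, in blue for BMP2/4 and in red for Rspo+BMP2/4. Axin2, Rnf43, Edar and Znrf3 on the left are higher in both Rspo+BMP2/4 sums, while Sox9, Krt15 and Tbx1 are lower in both and Lgr4, Id1 and Gata3 overlap between the conditions.

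Edar, the receptor of ectodysplasin in placode and hair matrix cells, is a WNT-responsive gene on chr10:58600789-58675654 of the reverse strand. It stood at 7.17 and 7.41 CPM in BMP2/4 and at 41.5 and 35.0 CPM in Rspo+BMP2/4, again without overlap. The log2 fold change was 2.40 (SE 0.47; edgeR adjusted p = 0.098), and Edar passed in the fits of the 4 sums (2.41; edgeR adjusted p = 0.00042) but not with the mouse as a block over all sums (edgeR adjusted p = 0.053). Ordered by p over the 6419 genes, Axin2, Edar and Rnf43 took ranks 2, 3 and 4. Of the 25 WNT target genes listed, 6 were tested, 4 of them were higher without overlap and 1 was lower, with a median log2 fold change of 1.60. The 4 higher ones, Axin2, Rnf43, Znrf3 and Edar, were all called in the fit of the 4 sums. That fit tested 10 genes of the list, with a median of 0.49. A filter on counts keeps a gene that is rare in a culture where another culture holds it higher, as with Axin2, Rnf43 and Edar. The 4 of 6 and the median of 1.60 thus depend in part on which genes the filter kept, and are no separate support. Among all genes tested, 19.6% were higher and 17.7% lower without overlap. The other tested members were Ccnd1, the G1 cyclin and the 1 lower, at 445 and 398 CPM against 397 and 384 CPM, and Cd44, an adhesion receptor, at 192 and 313 CPM against 208 and 290 CPM. Neither passed a test, with log2 fold changes of -0.11 (SE 0.38) and -0.01 (SE 0.43).

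The remaining WNT target genes were too rare to test. Notum, a secreted WNT inhibitor, had 5 and 0 UMIs in BMP2/4 against 23 and 2 in Rspo+BMP2/4, and Lgr5, the R-spondin receptor of active stem cells, had 1 and 0 against 15 and 1. All 15 Lgr5 UMIs of mouse 1 came from 6 of 102 cells. Lef1, the WNT effector of the hair matrix, had 9 and 3 UMIs against 20 and 3. Of the 25 genes, 9 to 13 had 0 UMIs in a given sum, among them Nkd1, Sp5, Wif1 and Dkk4 in all 4. Tcf7 was counted with 64 and 13 UMIs in BMP2/4 and 34 and 21 in Rspo+BMP2/4, and Tcf7l1 with 26 and 1 against 7 and 10, so that neither gave an order between the conditions. Tcf7l2, the only TCF/LEF factor tested, stood at 297 and 350 CPM against 379 and 517 CPM, with a log2 fold change of 0.47 (SE 0.45).

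The receptors for the added ligand were present in both cultures. Lgr4 stood at 173 and 204 CPM in BMP2/4 and 193 and 208 CPM in Rspo+BMP2/4, and Lgr6 at 162 and 167 CPM against 213 and 257 CPM. Their log2 fold changes were 0.10 (SE 0.40) and 0.51 (SE 0.34), and neither passed a test. Of 19 genes of the receptor axis, 7 were tested, and 5 were higher and 0 lower without overlap (all genes: 19.6% and 17.7%). Their median log2 fold change was 0.48 against -0.01 over all genes. Rnf43 and Znrf3, which are also in the WNT target list, were the 2 of them called in the fit of the 4 sums. Fzd6 and Lrp6, a WNT receptor and its co-receptor, were among these 5 at 123 and 107 CPM against 131 and 197 CPM, and at 53.8 and 42.6 CPM against 63.8 and 64.6 CPM. The mouse genes Rspo1, Rspo2 and Rspo4 had 0 UMIs in all 4 sums, and Rspo3 had 6 UMIs from 2 BMP2/4 cells of mouse 1, so the cells themselves supplied little R-spondin transcript in either culture.

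Promoter sequence was examined for the genes that moved together. The RefSeq windows of 250 bases before the start site (GRCm38.p6) were searched on both strands for CTTTGAT and CTTTGAA, the core letters that TCF/LEF factors bind. One of these was found for Edar and none for Axin2, whose windows are shown as the contrast of a match and no match within the group. Edar is given at chr10:58675697-58675946 (reverse strand) and Axin2 at chr11:108920099-108920348 (forward strand), 5' to 3', with the matched letters in capitals.
Edar: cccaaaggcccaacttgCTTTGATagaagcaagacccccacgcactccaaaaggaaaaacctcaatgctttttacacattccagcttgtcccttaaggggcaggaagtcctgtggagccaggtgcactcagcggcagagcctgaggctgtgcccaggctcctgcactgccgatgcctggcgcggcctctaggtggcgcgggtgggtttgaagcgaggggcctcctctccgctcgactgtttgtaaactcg
Axin2: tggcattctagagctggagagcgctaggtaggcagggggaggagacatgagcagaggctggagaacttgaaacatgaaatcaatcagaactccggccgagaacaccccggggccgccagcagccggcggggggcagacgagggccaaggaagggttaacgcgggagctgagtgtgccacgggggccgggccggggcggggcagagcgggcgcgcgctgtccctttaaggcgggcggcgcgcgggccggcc
The match in Edar begins 233 bases before the start site. The windows of Rnf43, Chst11 and Lef1 held no match, and Znrf3, Trps1, Notum and Lgr5 had no window in the table used. Among 14 WNT target genes with a window, 4 held a match in any of their windows (28.6%). Of single windows of all genes, 2457 of 32851 held a match (7.48%). A gene with several windows has more chances of a match, so these shares are of unlike units and give no comparison. These are descriptions of letters in a short window, and enhancers were not examined.

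Other genes outside the WNT lists, chosen after their values were seen, had changes of the same size. Chst11, a chondroitin sulfotransferase, stood at 6.62 and 5.56 CPM in BMP2/4 and 42.3 and 32.3 CPM in Rspo+BMP2/4 (log2 fold change 2.54, SE 0.52; edgeR adjusted p = 0.104). It rose with the mouse as a block (edgeR adjusted p = 0.046). Trps1, a GATA-type zinc finger factor needed for hair follicles, stood at 19.3 and 16.7 CPM against 92.4 and 90.7 CPM (2.30, SE 0.57; edgeR adjusted p = 0.376) and passed in the fits of the 4 sums (edgeR adjusted p = 5.1e-05). Sh3rf3 was counted at 14.3 and 42.6 CPM against 64.6 and 71.8 CPM (1.59, SE 0.46; edgeR adjusted p = 0.864) and passed likewise (edgeR adjusted p = 0.021). For each of these genes both Rspo+BMP2/4 sums were above both BMP2/4 sums.

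BMP target genes were counted in both cultures, and none passed a test of difference. Both cultures held BMP2/4, so these levels do not measure a response to it. Id1, Id2 and Id3, inhibitors of basic helix-loop-helix factors and direct BMP targets, stood at 761 and 571, 660 and 611, and 486 and 530 CPM in BMP2/4. In Rspo+BMP2/4 they stood at 623 and 499, 457 and 438, and 387 and 311 CPM. Id2 and Id3 did not overlap between the conditions, and the log2 fold changes were -0.25 (SE 0.41), -0.51 (SE 0.40) and -0.54 (SE 0.44), each at an edgeR adjusted p of 0.999. Of 16 BMP target genes, 5 were tested, of which 0 were higher and 2 were lower without overlap (all genes: 19.6% and 17.7%). Smad7 and Smad6, the inhibitory SMADs, overlapped, at 195 and 150 CPM against 174 and 211 CPM for Smad7. Of 13 BMP ligands and receptors, 6 were tested, 5 were higher and 1 lower without overlap, with a median log2 fold change of 0.32. Acvr1, a type I receptor, had the largest log2 fold change of these at 78.6 and 77.8 CPM against 113 and 130 CPM (0.63, SE 0.36).

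No HFSC or outer root sheath (ORS) gene was called in the fit over all sums. Of 17 listed, 9 were tested, and 0 were higher and 5 lower without overlap (all genes: 19.6% and 17.7%). The median log2 fold change was -0.30. Sox9, a master regulator of HFSCs, stood at 284 and 282 CPM in BMP2/4 and 212 and 171 CPM in Rspo+BMP2/4 (-0.56, SE 0.34; edgeR adjusted p = 0.999). Tbx1, an HFSC transcription factor, stood at 33.9 and 46.3 CPM against 14.5 and 23.3 CPM (-1.07, SE 0.40; edgeR adjusted p = 0.999). Krt15, a bulge keratin, stood at 2464 and 2281 CPM against 1983 and 672 CPM (-0.84, SE 0.60). The lowest level was that of Rspo+BMP2/4 in mouse 2, and without that sum the log2 fold change of Krt15 was -0.27. In the fit of the 4 sums with the mouse as a block, Krt15 fell by 1.02 on the log2 scale (edgeR adjusted p = 0.041). Cd34, the surface protein by which the cells had been sorted before culture, had 0 UMIs in all 4 sums, Lhx2 had 2 UMIs and Postn 1 UMI over them, and Nfatc1 had 12 and 0 UMIs in BMP2/4 and 12 and 1 in Rspo+BMP2/4, so these markers of the native bulge were rare or not detected at this depth.

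Lineage factors of the lower follicle were counted in both cultures, and the keratins of its layers had few or no UMIs. Cux1, of matrix progenitors, stood at 826 and 804 CPM in BMP2/4 and 890 and 1024 CPM in Rspo+BMP2/4 (0.23, SE 0.39). Hoxc13, of the hair shaft, stood at 52.1 and 40.8 CPM against 37.6 and 34.1 CPM (-0.41, SE 0.31). Gata3, of the IRS, stood at 34.2 and 33.4 CPM against 36.8 and 31.4 CPM (0.02, SE 0.35). None of them passed a test, and Gata3 overlapped between the conditions. Over all genes, 19.6% were higher and 17.7% lower without overlap. Of 20 hair shaft genes, 4 were tested (1 higher and 1 lower without overlap, median log2 fold change -0.03), and Krt31, Krt33b, Krt35, Krt81, Krt82, Krt84 and Krt86 had 0 UMIs in all 4 sums. Krt32 had 21 and 2 UMIs in BMP2/4 and 7 and 3 in Rspo+BMP2/4, and Krt33a, Krt34, Krt36, Krt39 and Krt83 had at most 4 in any sum. Of 13 IRS genes, 3 were tested (1 higher and 1 lower, median 0.02), and Krt25, Krt26, Krt71, Krt72 and Krt73 likewise had 0 UMIs, while Krt27 and Krt28 each had 2 in BMP2/4 and 1 in Rspo+BMP2/4 of mouse 1. The 1 higher was Padi1, an enzyme that converts arginine to citrulline in root sheath proteins, at 39.7 and 29.6 CPM against 74.0 and 68.2 CPM (0.97, SE 0.30; edgeR adjusted p = 0.999). Among 14 matrix progenitor genes 6 were tested, 3 were higher and 1 lower without overlap, and Edar was the only one of them called in any fit named so far.

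No epidermal differentiation gene was called. Of 30 epidermal differentiation genes, 22 were tested, and 5 were higher and 7 lower without overlap (all genes: 19.6% and 17.7%). The median log2 fold change was -0.13. Klf5, which opposes Sox9 during lineage plasticity, stood at 81.6 and 87.1 CPM in BMP2/4 and 109 and 101 CPM in Rspo+BMP2/4 (0.32, SE 0.31). Krt10, of suprabasal cells, stood at 37.5 and 46.3 CPM against 33.3 and 23.3 CPM (-0.48, SE 0.43), and Ivl, a cornified envelope protein, at 43.3 and 50.03 CPM against 28.6 and 23.3 CPM (-0.79, SE 0.40). Ly6d and Krtdap, of suprabasal keratinocytes, had log2 fold changes of -0.25 (SE 0.49) and 0.52 (SE 0.41). Of 18 wound and plasticity genes, 14 were tested, 1 was higher and 3 were lower, with a median of -0.11, and Krt6a, a wound keratin, stood at 986 and 977 CPM against 726 and 698 CPM. None of the wound genes was called. Flg, a cornified layer gene, was taken as a possible marker of free RNA from other cells. In the B-27 cells of the same capture runs it stood at 2030 and 1717 CPM. It was at 8.00 and 9.27 CPM in BMP2/4 and 7.44 and 7.18 CPM in Rspo+BMP2/4.

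**Figure D2:**
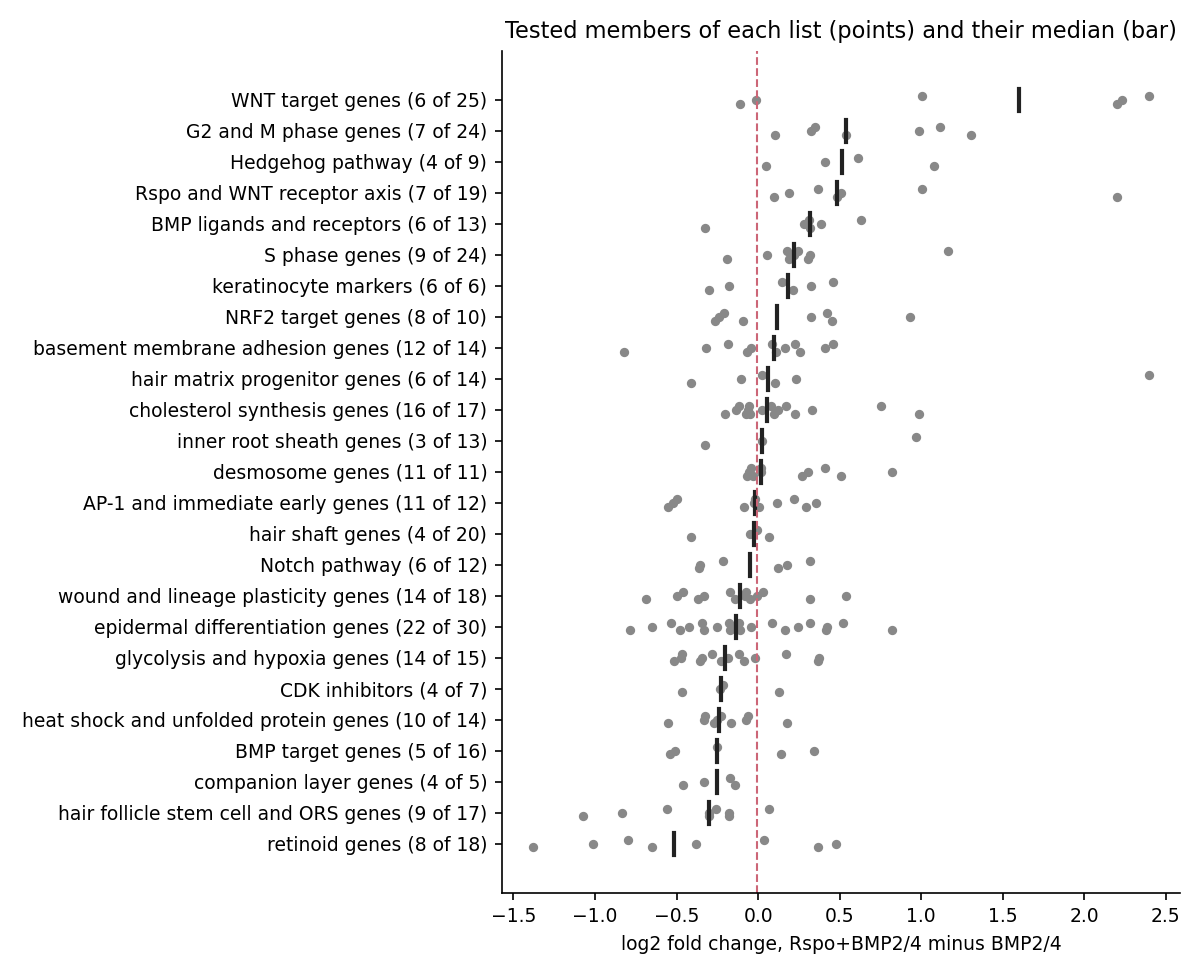
Log2 fold changes of Rspo+BMP2/4 minus BMP2/4 for the tested members of each gene list with at least 3 of them (grey points) and the list median (black bar), with tested and listed genes in brackets. The dashed line is the median of all 6419 genes, -0.01. The WNT target list has a median of 1.60 over 6 tested genes and the retinoid list one of -0.52 over 8, but in the fit of the 4 sums these were 0.49 and -0.17 over 10 genes each.

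No proliferation gene was called over all sums, and single cells weighed heavily on several. Top2a stood at 56.2 and 22.2 CPM in BMP2/4 and 67.7 and 127 CPM in Rspo+BMP2/4 (1.11, SE 0.48; edgeR adjusted p = 0.999), and Mki67 at 12.1 and 7.41 CPM against 16.1 and 29.6 CPM (0.99, SE 0.48). Of the 33 Mki67 UMIs in Rspo+BMP2/4 of mouse 2, 27 came from 1 of 35 cells, and of 61 Cenpf UMIs there 45 came from 1 cell. With HTODemux hashtag calls the signs turned, to -0.018 for Top2a and -0.42 for Mki67. Of 24 G2/M genes, 7 were tested with 2 higher and 0 lower, and of 24 S phase genes, 9 were tested with 3 higher and 0 lower. Over all genes, 19.6% were higher and 17.7% lower without overlap. Ccne2, the cyclin of the G1/S transition, was not tested over all sums, with 5 and 0 UMIs against 41 and 8, and rose in the fit of the 4 sums (3.34; edgeR adjusted p = 0.032). Of 7 CDK inhibitors, 4 were tested and 1 was lower. Cdkn1a stood at 316 and 248 CPM against 333 and 285 CPM (0.13, SE 0.40), and Cdkn2a at 355 and 282 CPM against 231 and 321 CPM (-0.22, SE 0.42).

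Since both media held atRA, retinoid genes were compared as well. Of 18 listed, 8 were tested, and 2 were higher and 4 lower without overlap (all genes: 19.6% and 17.7%). The median log2 fold change was -0.52. It was -0.17 over 10 genes in the fit of the 4 sums, and 0.21 over 4 without the highest cell of each gene. Stra6 and Dhrs3, a retinol transporter and a retinaldehyde reductase that retinoic acid induces, were the higher pair, at 231 and 226 CPM against 329 and 307 CPM (0.48, SE 0.37) and at 140 and 137 CPM against 170 and 189 CPM (0.37, SE 0.34). Crabp2, a retinoic acid binding protein, stood at 34.2 and 35.2 CPM against 23.5 and 8.08 CPM (-1.01, SE 0.50). None was called. In the Hedgehog pathway 4 of 9 genes were tested, 3 were higher and 0 lower, with a median of 0.51. Ptch1, the receptor and a target of the pathway, stood at 17.6 and 16.7 CPM against 39.5 and 33.2 CPM (1.08, SE 0.42; edgeR adjusted p = 0.999), and Gli2 at 38.1 and 59.3 CPM against 66.9 and 73.6 CPM (0.61, SE 0.32), while Shh and Ihh had 0 UMIs and Gli1 had 1 UMI over the 4 sums. All 6 tested Notch genes overlapped.

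Glycolysis was examined as a measure of metabolic state. Of 15 glycolysis and hypoxia genes, 14 were tested, and 2 were higher and 7 lower without overlap (all genes: 19.6% and 17.7%). The median was -0.21. Gapdh stood at 5099 and 3819 CPM in BMP2/4 and 3464 and 3494 CPM in Rspo+BMP2/4 (-0.36, SE 0.48). Ldha and Pgk1 had log2 fold changes of -0.47 (SE 0.43) and -0.47 (SE 0.46). None was called. Dst, a linker of hemidesmosomes and keratin, had the lowest log2 fold change of the adhesion genes, at 191 and 296 CPM against 153 and 119 CPM (-0.82, SE 0.34). The immediate early, heat shock, cholesterol synthesis, NRF2 target, desmosome and basement membrane lists had medians between -0.24 and 0.11 and no called member.

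Some calls rested on single cells. Of the 28 genes called higher in the fit of the 4 sums, 4 drew over 50% of their UMIs in their highest sum from 1 cell, and of the 7 called lower, 3 did. Mt3, a metallothionein, had 489 of its 513 UMIs in Rspo+BMP2/4 of mouse 1 from 1 cell of 102, and Alox12e, an epidermal lipoxygenase, had 50 of its 84 UMIs in BMP2/4 of mouse 1 from 1 of 122 cells. Alox12e nonetheless stood at 23.2 and 20.4 CPM in BMP2/4 and 1.17 and 0.898 CPM in Rspo+BMP2/4, with UMIs in 10 and 3 cells against 3 and 1. Both of these were called with the mouse as a block. Cxcl1, a neutrophil chemokine, had 140 of its 156 UMIs in BMP2/4 of mouse 2 from 1 cell of 14, and all 45 UMIs of Lcn2 in that sum came from 1 cell. Axin2 drew 9.76% and Rnf43 7.33% of their UMIs in Rspo+BMP2/4 of mouse 1 from the highest cell. When the highest cell of each gene was left out of every sum, 5040 genes were tested, 5 were higher (0.0992%) and 0 lower (0.0%). These were Rnf43 (2.44; edgeR adjusted p = 0.0020), Axin2 (2.27; 0.020), Chst11 (2.66; 0.018), Trps1 (2.52; 0.019) and Sh3rf3 (2.14; 0.0082).

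Among genes called lower that did not rest on 1 cell, Clu stood at 92.4 and 70.4 CPM in BMP2/4 and 35.2 and 46.7 CPM in Rspo+BMP2/4 (-1.05, SE 0.32; edgeR adjusted p = 0.999) and fell in the fit of the 4 sums (-1.09; edgeR adjusted p = 0.039). It encodes the chaperone clusterin. Ppbp, a chemokine of the CXC class, stood at 554 and 233 CPM against 65.4 and 184 CPM (-1.69, SE 0.90) and fell in the same fit (-1.77; edgeR adjusted p = 0.034), but with the mouse as a block in it, Ppbp did not pass (edgeR adjusted p = 0.054). In Rspo+BMP2/4 of mouse 2, 51.7% of Ppbp UMIs came from 1 cell.

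**Figure D3:**
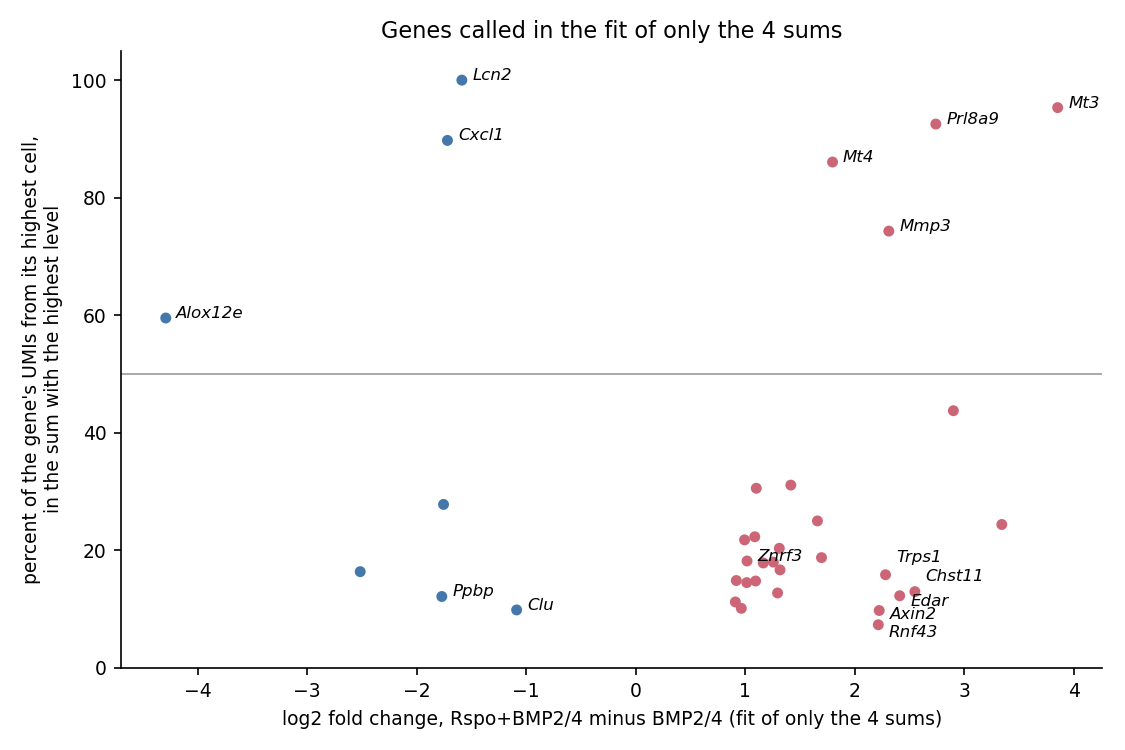
The 35 genes called in the fit of the 4 sums, by log2 fold change (horizontal, Rspo+BMP2/4 minus BMP2/4) and by the percent of the gene's UMIs that its highest cell supplied in the sum where its level was highest (vertical). Mt3, Mt4, Mmp3, Prl8a9, Alox12e, Cxcl1 and Lcn2 lie above the line at 50%, and Axin2, Rnf43, Edar, Chst11, Trps1, Znrf3, Clu and Ppbp lie under 20%.

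Gene length moved with the comparison. The 1142 tested genes that span over 100000 bases (17.8% of those tested) had a median log2 fold change of 0.22, against -0.05 for the others, and 78.1% of them had a positive value against 42.6%. Of the 28 genes called higher in the fit of the 4 sums, 16 were long, among them Sema5a, a semaphorin (57.9 and 46.3 CPM against 163 and 99.6 CPM), and Map2, which binds microtubules (66.5 and 59.3 CPM against 140 and 170 CPM). None of the 7 called lower in that fit was long. When the 25% of cells richest in long genes were left out of each mouse, the medians were 0.08 and -0.01, and of 7701 genes tested 0 were higher (0.0%) and 1, Alox12e, was lower (0.013%). Without those cells the log2 fold change was 2.04 for Axin2, 1.82 for Rnf43, 1.65 for Edar, 1.90 for Chst11 and 1.60 for Trps1, while Znrf3 stood at 0.36, Lgr6 at 0.08, Sema5a at 0.75 and Map2 at 0.50. The median of the WNT target list was then 0.17 over 8 tested genes and that of the receptor axis 0.08 over 9. With a hashtag share of at least 90% the order of the medians turned, to -0.08 for long genes and 0.0046 for the others. This limit left 12 of 122 BMP2/4 and 20 of 102 Rspo+BMP2/4 cells of mouse 1. Axin2 spans 30435 bases, Rnf43 72818 and Edar 74866, under the cut of 100000. Each had a smaller log2 fold change without the cells richest in long genes than with them. The part of gene length in these differences was not tested.

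**Figure D4:**
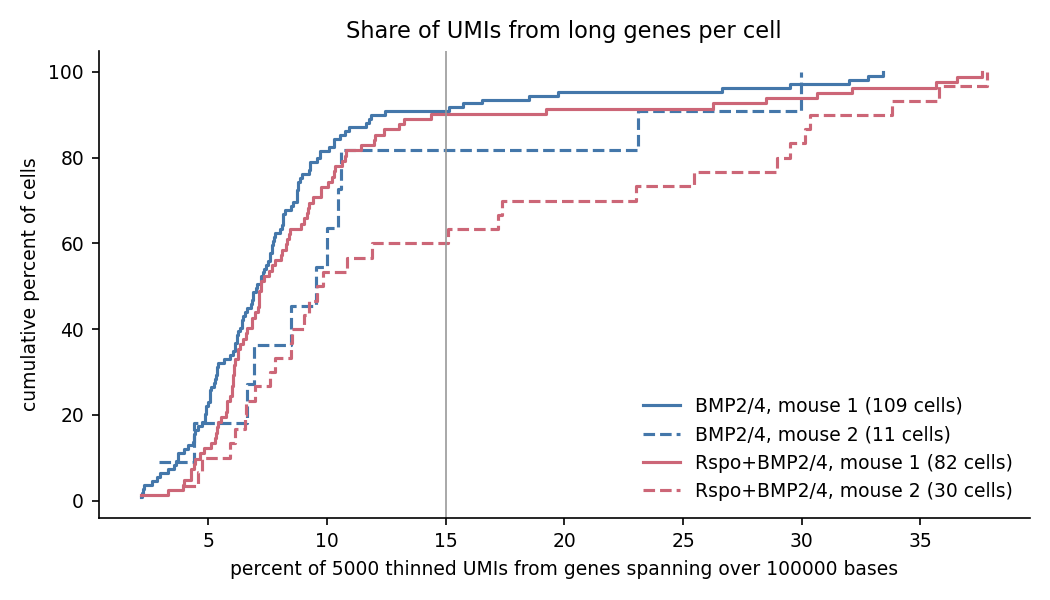
Share of a cell's UMIs from genes that span over 100000 bases, after thinning each cell to 5000 UMIs, as the cumulative percent of cells in each mouse and condition. The vertical line marks 15%. The curves of mouse 1 run close together, whereas in mouse 2 40.0% of Rspo+BMP2/4 cells lie beyond the line, against 18.2% of BMP2/4 cells.

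The spread among cells was described next. Each cell of at least 5000 UMIs was thinned to 5000 UMIs, which left 109 and 11 BMP2/4 cells and 82 and 30 Rspo+BMP2/4 cells. The first principal component within each mouse followed the share of UMIs from long genes, with r = 0.99 over 191 cells of mouse 1 and 0.99 over 41 cells of mouse 2, a description of cells that share a capture. It followed condition weakly, with r = 0.12 and 0.17. Cells with at least 15% of UMIs from long genes numbered 10 of 109 and 2 of 11 in BMP2/4, and 8 of 82 and 12 of 30 in Rspo+BMP2/4. In Rspo+BMP2/4 of mouse 2 these cells held a median of 20237 UMIs (before thinning) against 41039 in the rest, and 7.43% against 6.65% mitochondrial UMIs. The part of these cells in the differences between conditions was not tested beyond leaving them out.

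Nearest neighbors were mixed between the conditions. Among the 20 nearest cells of a BMP2/4 cell, 60.5% and 31.4% were BMP2/4, where cell numbers alone give 56.8% and 25%. For Rspo+BMP2/4 cells, 54.3% and 65.5% of neighbors were Rspo+BMP2/4, where cell numbers give 42.6% and 72.5%. The share was thus above that of the cell numbers for Rspo+BMP2/4 in mouse 1 and under it in mouse 2.

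The spread of single genes was measured as the excess squared coefficient of variation, the variance beyond counting error over the squared mean. Over 1086 genes with a mean of at least 0.5 thinned UMI in all 4 sets of cells, its median was 0.206 and 0.217 in BMP2/4 and 0.212 and 0.323 in Rspo+BMP2/4. It was higher in Rspo+BMP2/4 in both mice for 411 genes and lower in both for 161. The 10 most variable genes in BMP2/4 were Camk1d, Slpi, Ppbp, U90926, Hmga2, Immp2l, Cxcl5, Ralgapa2, Galnt18 and Bst2. They include the antiprotease Slpi and the chemokines Ppbp and Cxcl5, and 5 of the 10 were long. In Rspo+BMP2/4 they were U90926, Hmga2, Tenm4, Plxna2, Map2, Stard13, Immp2l, Camk1d, Rps6ka5 and Efna5, of which 9 were long, against 22.9% of all 1232 genes ranked there. Ppbp had a thinned UMI in 44.7% and 35.4% of BMP2/4 cells and in 19.0% and 16.9% of Rspo+BMP2/4 cells. Camk1d had one in 71.1% and 59.6% against 75.4% and 81.1%.

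Detection of the WNT feedback genes was compared at equal depth, where a cell without a UMI may still express the gene. These genes were already higher in the sums of the same cells, so higher shares are no separate support. At 5000 UMIs, Axin2 was expected with a UMI in 4.33% and 1.73% of BMP2/4 cells and in 16.7% and 14.9% of Rspo+BMP2/4 cells. Rnf43 was expected in 6.86% and 8.13% against 26.2% and 28.8%, Edar in 3.29% and 4.49% against 15.7% and 18.7%, and Znrf3 in 20.8% and 28.3% against 32.4% and 46.8%. In cells with under 15% of UMIs from long genes, Znrf3 stood at 17.2% and 29.9% against 28.4% and 27.3%, which turned its order in mouse 2. Edar stood there at 3.05% and 1.48% against 11.9% and 5.93%. Axin2 stood at 4.50% and 2.11% against 17.4% and 12.1%, and Rnf43 at 5.74% and 5.93% against 20.9% and 17.3%. Flg, which was at a high level in the B-27 cells of the capture runs, was expected in 3.07% and 6.37% of BMP2/4 cells and 2.87% and 2.69% of Rspo+BMP2/4 cells. Whether its UMIs here were free RNA of other cells or the cells' own transcript was not tested. The free RNA of Axin2 or Edar itself was not measured. Before thinning, Axin2 was counted in 22.1% and 14.3% of BMP2/4 cells and 48.0% and 48.6% of Rspo+BMP2/4 cells, and Flg in 18 of 122 and 5 of 14 against 17 of 102 and 7 of 35.

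The 4 genes were also counted jointly. They are the WNT target genes found higher without overlap in the same sums, so higher joint shares in Rspo+BMP2/4 follow from that choice. The shares describe how the UMIs lay over the cells and give no further support for a difference. At 5000 UMIs a UMI of at least 1 of Axin2, Rnf43, Edar and Znrf3 was expected in 30.8% and 38.0% of BMP2/4 cells and in 59.2% and 62.7% of Rspo+BMP2/4 cells. Before thinning, in the same cells, these shares were 81.7% and 100% against 90.2% and 96.7%, so that their order turned in mouse 2, where BMP2/4 has 11 such cells. At least 2 of the 4 were expected together in 4.31% and 4.41% against 24.5% and 31.6%, and were counted before thinning in 40.4% and 45.5% against 81.7% and 86.7%. Among cells with under 15% of UMIs from long genes, at least 2 were expected after thinning in 3.22% and 2.92% against 19.1% and 14.1%. Cells with none of the 4 genes made up 40.8% and 37.3% of Rspo+BMP2/4 cells, where independence of the 4 genes across cells would give 35.1% and 26.2%. In BMP2/4 these values were 69.2% and 62.0% against 68.2% and 61.8%. Rspo+BMP2/4 cells thus held somewhat more cells without any of the genes than independence gives, with the difference larger in mouse 2, whose cells also differed more in long genes.

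**Figure D5:**
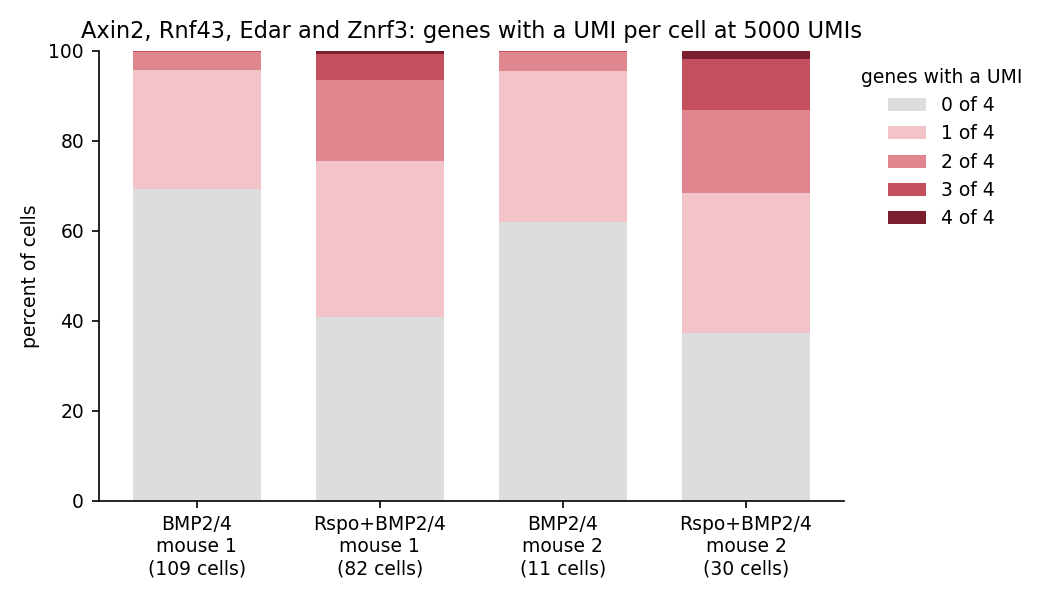
Percent of cells expected to hold a UMI of 0, 1, 2, 3 or 4 of the genes Axin2, Rnf43, Edar and Znrf3 after thinning to 5000 UMIs, stacked for each mouse and condition. Cells with 2 or more of the genes take 4.31% and 4.41% of BMP2/4 and 24.5% and 31.6% of Rspo+BMP2/4. The 4 genes were those found higher in the same sums, so this order follows from that choice.

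Lists were summed in cells of at least 5000 UMIs, with means over all their UMIs and percentiles after thinning. The receptor axis took a mean of 0.064% and 0.069% of a BMP2/4 cell's UMIs and 0.081% and 0.154% of an Rspo+BMP2/4 cell's. BMP target genes took 0.180% and 0.165% against 0.153% and 0.143%. For the receptor axis the median cell stood at 0.04% in BMP2/4 of both mice and at 0.08% and 0.10% in Rspo+BMP2/4, and the 90th percentile at 0.144% and 0.08% against 0.178% and 0.382%. HFSC and ORS genes took 1.77% and 1.57% in BMP2/4 and 1.73% and 1.26% in Rspo+BMP2/4, and their 10th to 90th percentiles overlapped widely, from 0.816% to 2.46% and 0.50% to 2.50% against 0.766% to 2.63% and 0.378% to 2.04%.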

How the data were processed

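Cultured HFSCs of 2 mice were measured as single cells (10x Genomics 3' assay, V3). For each mouse the authors deposited a matrix of whole UMI counts, in which 7 of the 32292 features hold hashtag counts. By the submitters' notes the counts were made with Cell Ranger 7.0.1 on mm10. SoupX and DoubletFinder, which the study names, are not part of these counts. Doublets within a culture were not removed here, and those between cultures only by the hashtag limit.

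UMIs were summed per mouse and condition where at least 5 cells were left, which kept 10 sums of 5 conditions, and genes that passed filterByExpr were scaled by TMM and compared by the quasi-likelihood test of edgeR 4.0.16 in R 4.3.3. The model had 1 mean per condition, and a gene was called at a Benjamini-Hochberg adjusted p under 0.05. The fit was tested on simulated data. The common biological coefficient of variation was 0.231. Sums of the same number come from the same mouse. Their deviations from the group means correlated at 0.0397 over 6211 genes, so the fit with the mouse as a block is given where it changes a call. Without the block, p-values rest in part on the spread between the 2 lines within a condition, taken over all conditions in the fit. With the block, they rest in part on the spread left after the difference between the lines is taken out. The fit over all sums had 5 residual degrees of freedom, against a median of 16.0 borrowed from other genes. P-values thus also rest on the spread of other genes, and the fits of the 4 sums have fewer residual degrees of freedom. A list is described by the order of the 4 sums and its median.

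Thinned shares are expectations over draws of 5000 UMIs per cell without replacement. Principal components (20, over 2000 genes) and list percentiles used 1 draw. Gene spans come from GENCODE M21 (GRCm38), and 99.6% of genes had one. The conditions, lists and members were chosen with earlier results of these data known. The naming rule gave the listed WNT, BMP and follicle genes and up to 4 members of other lists. All other names were chosen after their values were seen. Alternatives were DESeq2 1.42.0, no count filter, a stricter threshold, leaving out each sum, the block, fewer sums, HTODemux in Seurat 5.3.0, other limits on hashtags, mitochondria and depth, and 2 added after seeing the data, namely leaving out the highest cell of each gene and the cells richest in long genes.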

Additional observations from a re-analysis of the deposited data

How the results depend on the processing

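Over 52 named genes, 684 of 771 alternative values kept direction and side of the threshold, 54 newly passed it and 33 turned sign. The count of genes called, 0 over all sums, was 26 with no filter on low counts and 5 with the mouse as a replicate block. With only the 4 sums it was 35, and 50 with the block in that fit. It was 3 at under 20% mitochondrial UMIs (Edar, Rnf43 and Axin2). Without the highest cell of each gene it was 5, and without the cells richest in long genes 1. Cells thinned to 3000 UMIs gave 2 of 1085 genes tested, Ccl5 and Cmss1. The genes tested differed between these settings. Leaving out 1 sum left 1 mouse in a condition. Without BMP2/4 of mouse 1, the log2 fold changes of Ccl5, Cxcl2, Ccl2 and Cxcl1 were -10.1, -4.30, -5.20 and -2.50. In BMP2/4 of mouse 2, their highest cells held 592 of 592, 153 of 162, 76 of 76 and 140 of 156 UMIs. Without Rspo+BMP2/4 of mouse 2, Mt3 stood at 4.76, and 1 cell held 489 of its 513 UMIs in Rspo+BMP2/4 of mouse 1. DESeq2, HTODemux, a hashtag share of at least 90% and an adjusted p under 0.01 with a log2 fold change over 1 called 0 genes. The limit of 1000 genes and under 5% mitochondrial UMIs left under 5 cells in mouse 2 and could not be fitted. The block called Axin2, Rnf43, Chst11, Mt3 and Alox12e over all sums, and within the 4 sums it added Krt15 and removed Ppbp. Within the 4 sums it also added Cxcl2 (-2.45, edgeR adjusted p = 0.026), whose UMIs in BMP2/4 of mouse 2 came mostly from 1 cell. Of the 52 named genes it changed no other call. The cause of these changes was not tested.

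A hashtag share of at least 90% left 12 of 122 BMP2/4 and 20 of 102 Rspo+BMP2/4 cells of mouse 1. Signs turned on the log2 scale as follows. With a hashtag share of at least 90%, Lgr4 stood at -0.85, Ccnd1 at 0.31, Cd44 at 0.11, Cux1 at -0.20, Klf5 at -0.24, Dhrs3 at -0.12, Gli2 at -0.20, Gapdh at 0.28 and Cdkn2a at 0.034. With HTODemux, Cd44 stood at 0.038, Gata3 at -0.015, Top2a at -0.018 and Mki67 at -0.42. At under 20% mitochondrial UMIs, Lgr4 stood at -0.14 and Gata3 at -0.19. Without the cells richest in long genes, Lgr4 stood at -0.17 and Cux1 at -0.11. In cells thinned to 3000 UMIs, Id2 stood at 0.018, Krt10 at 0.90 and Ly6d at 0.085. Cd44 stood at 0.0064 with no filter, 0.013 with the 4 sums, 0.0073 with the block in them and 0.081 without its highest cell. Leaving out 1 sum in turn gave Lgr4 -0.023 to 0.21, Cd44 -0.33 to 0.36, Gata3 -0.11 to 0.11, Ly6d -0.77 to 0.36, Mt3 -0.85 to 5.71, Cdkn1a -0.038 to 0.32 and Cdkn2a -0.48 to 0.0080.

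Without thinning, the median excess squared coefficient of variation was 0.600 and 0.859 in BMP2/4 and 0.728 and 1.10 in Rspo+BMP2/4, and with HTODemux it was 0.186 and 0.207 in BMP2/4 and 0.194 and 0.359 in Rspo+BMP2/4. The receptor axis took 0.0604% and 0.0613% of BMP2/4 UMIs without thinning, against 0.0693% and 0.138% in Rspo+BMP2/4, and 0.0594% and 0.0731% against 0.0735% and 0.161% with HTODemux. Without thinning, BMP targets took 0.170% and 0.146% in BMP2/4 and 0.138% and 0.138% in Rspo+BMP2/4. Without thinning, Rnf43 was counted in 24.6% and 28.6% of BMP2/4 cells and 56.9% and 60% of Rspo+BMP2/4 cells, and Axin2 in 22.1% and 14.3% against 48.0% and 48.6%. At 3000 UMIs, Axin2 was expected in 10.3% and 8.82% of Rspo+BMP2/4 cells, and Rnf43 in 4.25% and 5.13% against 17.4% and 19.2%.

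With 14 BMP2/4 cells in mouse 2, 3 UMIs, the floor of detection, amount to 5.56 CPM there, so genes such as Lgr5 and Notum could not be ordered at this depth.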
